A study of Homo sapiens with 9 samples.

Results

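Glypicans and syndecans are the main families of heparan sulfate proteoglycans at the cell surface. Glypicans (GPC1 to GPC6) are held in the membrane by a glycosylphosphatidylinositol (GPI) anchor, and syndecans (SDC1 to SDC4) span it and end in a short cytoplasmic tail that binds scaffold proteins. Both carry long sulfated sugar chains that hold growth factors such as fibroblast growth factors, Wnts and hedgehogs near their receptors. In liver, GPC3 is an oncofetal gene used as a marker of hepatocellular carcinoma, and SDC1 and SDC2 are syndecans of the hepatocyte surface. The 10 genes were taken by symbol, and 9 of them were measured by a probe set assigned to that gene alone, among 18417 genes in all. The exception is SDC4, whose probe set is annotated with another gene as well, so it was not analysed here.

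The data are log2 signals of total RNA on 9 Affymetrix arrays, 3 for each of 3 groups of Hep3B, an established human liver cancer line. One group was untreated, one received a nonsense siRNA by Oligofectamine transfection, and one received an siRNA specific for YAP, the coactivator restrained by the Hippo pathway. All cells grew for 24 h in full medium, and transfected cells were kept for 24 h more. By the labels, untreated cells differ from both transfected groups in transfection and in this added time. The part of each was not tested. The labels give no genotype and do not say whether the 3 samples of a group were separate cultures, so every spread is that between these samples, and the array number limits the precision. The sample titles begin with HUH, whereas the cell line field says Hep3B, and the latter was followed.

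YAP1, the target of the siRNA, was lower in the arrays labelled YAP siRNA: its log2 signal fell by 1.18, to 44.0% of the nonsense siRNA level. All 8 measured hepatocyte markers lay at or above the median signal over genes (7.31), with a mean level between 10.90 and 11.04 on every array. So did 2 of 6 fibroblast, 0 of 5 endothelial, 2 of 6 leukocyte and 3 of 5 bile duct markers. Of 22 markers of fibroblast, endothelial, leukocyte and bile duct cells, 1 was called between YAP and nonsense siRNA, beside 4.53% of all genes. It was the collagen gene COL1A2, which rose by 0.43 (limma adjusted p = 0.000538). The mean level of the 6 fibroblast markers was 7.28 to 7.30 in untreated cells, 7.16 to 7.22 after nonsense siRNA and 7.25 to 7.30 after YAP siRNA, and its part in the results was not tested. Nonsense siRNA replicate 2 stood apart from its group. Across genes its Pearson r was 0.994 to 0.995 with the untreated arrays and 0.993 to 0.994 with the other 2 nonsense siRNA arrays, so results that rest on it are also given without it.

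The families were chosen partly on their log2 levels and differences between these groups, which were known. Their differences are therefore a description, given with the standard error (SE) of the limma fit. A gene is called where its adjusted p in the fit over all genes was under 0.05, and no p is given for these genes. Between YAP and nonsense siRNA, 4.53% of all genes were called, 2.61% lower and 1.92% higher. Of the 9 genes measured, GPC6, GPC4 and SDC2 were called, each lower after YAP siRNA; GPC6 alone was called without nonsense siRNA replicate 1 or 3 or YAP siRNA replicate 1, and with all probe sets tested. The median difference of the 9 was -0.04, beside 0.01 over all genes. Between YAP siRNA and untreated cells, where 3.09% of all genes were called, 1.46% lower and 1.63% higher, GPC6 was the 1 gene of the families that was called, and the median was -0.06 beside -0.01. Between nonsense siRNA and untreated cells, where 0.614% of all genes were called, 0.277% lower and 0.337% higher, limma called 0 of 9, and the median was -0.02 beside -0.02. An unadjusted limma p under 0.05 was held there by 2 of the 9, beside 3597 of all 18417 genes, a similar share. With array weights, with nonsense siRNA replicate 2 left out, or with 3 arrays left out together (untreated replicate 3, nonsense siRNA replicate 2 and YAP siRNA replicate 3), 1 was called there, SDC1. In those settings 14.2%, 7.98% and 12.6% of all genes were called. The comparisons share their groups, so the same arrays enter more than 1 of these counts.

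**Figure D1:**
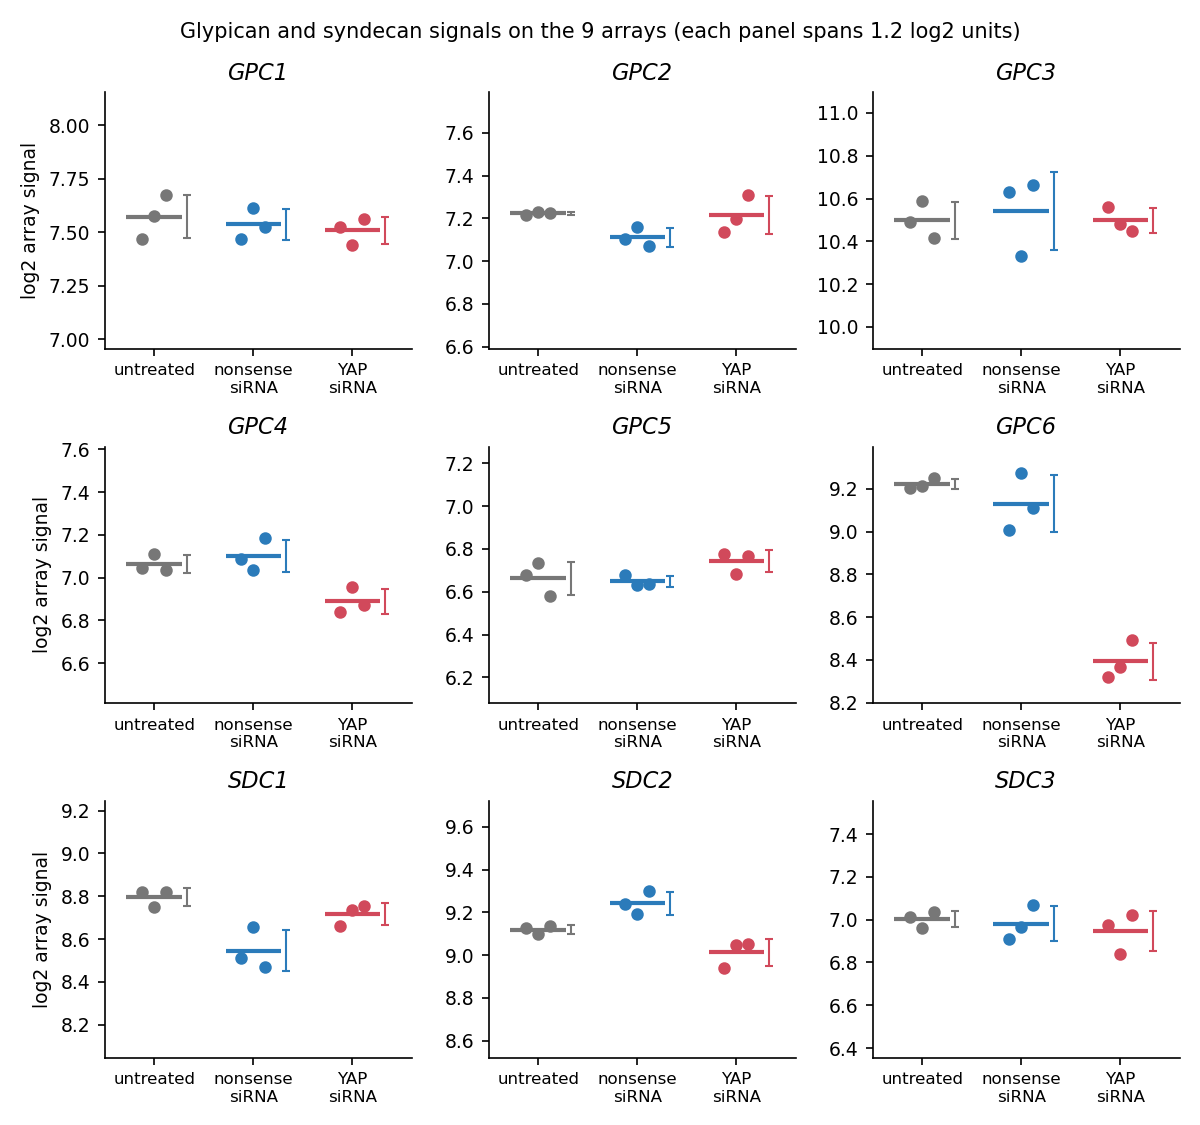
Log2 array signal (vertical axis, 1.2 units in each panel) of the 9 genes measured on each of the 9 arrays, by group. Points are arrays, horizontal bars are group means and vertical bars are ± SD (n = 3). The YAP siRNA arrays of GPC6 sit between 8.32 and 8.49, below all 6 control arrays at 9.01 to 9.27, whereas the 3 groups overlap in GPC1, GPC3 and SDC3.

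GPC6 encodes a GPI-anchored glypican that is active in skeletal growth, where it promotes hedgehog signalling, and it showed the largest difference of the families. Its log2 signal was 9.21, 9.21 and 9.25 on the 3 untreated arrays, 9.01, 9.27 and 9.11 after nonsense siRNA, and 8.32, 8.37 and 8.49 after YAP siRNA. All 3 YAP siRNA arrays lay below all 6 control arrays, and the gap to the nearest control array was 0.52, where the largest SD within a group was 0.13 (n = 3). GPC6 fell by 0.74 against nonsense siRNA (SE 0.0672), which left 60.0% of that level, and by 0.83 against untreated cells (SE 0.0672), which left 56.3%. Among 18417 genes these were the 16th and the 4th largest falls of their comparisons, where YAP1 itself was the 3rd and the 2nd. The control groups overlapped through nonsense siRNA replicate 2 alone, and nonsense siRNA differed from untreated cells by -0.09 (SE 0.0672), or by -0.16 without that replicate, not called either way. GPC6 was called in both comparisons in all 21 alternative fits. These fits reuse the arrays on which the families were chosen, so this too is a description. With 1 array left out its fall ranged from -0.80 to -0.67 against nonsense siRNA and from -0.88 to -0.79 against untreated cells. In bulk RNA, fewer cells with the transcript and less transcript per cell cannot be told apart.

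GPC6 lies on chromosome 13 beside a second glypican gene, GPC5, and the pair differed. GPC5 was dim on these arrays, at percentile 27.2 of mean signal over genes, and its arrays read 6.68, 6.73 and 6.58 untreated, 6.68, 6.63 and 6.64 with nonsense siRNA and 6.78, 6.68 and 6.77 with YAP siRNA. Its difference was 0.09 against nonsense siRNA (SE 0.0550) and 0.08 against untreated cells (SE 0.0550), and it was not called. TGDS, the nearest measured gene on the other side of GPC6 on assembly GRCh38.p14 and chosen after values were seen, differed by 0.000111 against nonsense siRNA (SE 0.0758) and was not called either.

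The 250 bases before the RefSeq transcript start of GPC6, its neighbour GPC5 and GPC4 are shown because GPC6 and GPC4 were lower after YAP siRNA and GPC5 was not. The windows are chr13:93226557-93226806 on the plus strand for GPC6, chr13:91398371-91398620 on the plus strand for GPC5 and chrX:133415490-133415739 on the minus strand for GPC4 (RefSeq, build GRCh38.p14). Capitals mark matches to GGGCGG or its reverse complement CCGCCC, letters bound by SP1.
GPC6: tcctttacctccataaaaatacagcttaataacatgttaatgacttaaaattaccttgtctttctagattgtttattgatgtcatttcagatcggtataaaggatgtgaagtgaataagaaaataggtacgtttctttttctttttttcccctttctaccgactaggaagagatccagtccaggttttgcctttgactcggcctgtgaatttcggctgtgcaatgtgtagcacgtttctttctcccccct
GPC5: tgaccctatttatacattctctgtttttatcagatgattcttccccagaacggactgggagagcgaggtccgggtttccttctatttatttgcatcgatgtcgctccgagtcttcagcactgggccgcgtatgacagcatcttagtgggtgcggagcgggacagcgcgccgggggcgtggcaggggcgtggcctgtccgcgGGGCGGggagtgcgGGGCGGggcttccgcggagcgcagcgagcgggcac
GPC4: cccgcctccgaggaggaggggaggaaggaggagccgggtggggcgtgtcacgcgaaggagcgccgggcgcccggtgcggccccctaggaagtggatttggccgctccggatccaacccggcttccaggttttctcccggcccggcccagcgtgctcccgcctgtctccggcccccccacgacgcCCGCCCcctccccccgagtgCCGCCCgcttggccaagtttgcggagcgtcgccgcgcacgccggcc

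The GPC6 window is poor in G and C. Its GC content was 37.6%, at percentile 9.23 of 35116 such windows, whose median was 58.0%, against 62.4% for GPC5 and 76.0% for GPC4. It holds 6 CpG steps, where GPC5 holds 25 and GPC4 holds 32. The table held entries for 8 of the 10 genes, without GPC3 and SDC2. GGGCGG was found on either strand in 7 of the 8, GPC6 being the exception, and in 42.6% of all windows. The letters GGAATG, bound by the TEAD partners of YAP, were found on either strand in 0 of the 8 and in 11.9% of all windows. A match is a description of letters in this window and says nothing of binding elsewhere.

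GPC4 encodes a glypican that binds Wnt and fibroblast growth factors, and belongs with GPC1, GPC2 and GPC6 to 1 of the 2 glypican subfamilies. The log2 signal of GPC4 was 7.04, 7.11 and 7.04 on the untreated arrays, 7.09, 7.04 and 7.19 after nonsense siRNA and 6.84, 6.96 and 6.87 after YAP siRNA. The YAP siRNA arrays lay below all control arrays, by a gap of 0.08. GPC4 fell by 0.21 against nonsense siRNA (SE 0.0563), to 86.2% of that level. Against untreated cells the difference was -0.17 (SE 0.0563) and was not called. Its mean signal, 7.02, lay under the median over genes. The call was lost without untreated replicate 1 or 2 (difference unchanged at -0.21), nonsense siRNA replicate 1 (-0.22) or 3 (-0.17), or YAP siRNA replicate 1 (-0.19) or 3 (-0.20), and over all alternatives it held in 9 of 20.

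GPC3 lies next to GPC4 on the X chromosome, in the other subfamily with GPC5. It was bright on these arrays, at percentile 98.6 of mean signal. Its log2 signal was 10.49, 10.59 and 10.42 in untreated cells, 10.63, 10.33 and 10.66 after nonsense siRNA and 10.56, 10.48 and 10.45 after YAP siRNA. The 3 groups overlapped, and the largest spread was that of nonsense siRNA, where replicate 2 lay lowest of all 9 arrays. GPC3 differed by -0.04 between YAP and nonsense siRNA (SE 0.0775, 95% interval -0.21 to 0.12), and by 0.04 between nonsense siRNA and untreated cells. Without nonsense siRNA replicate 2 these were -0.15 and 0.15, and neither was called. Against untreated cells it differed by -0.000417 (95% interval -0.17 to 0.16). TFDP3, the nearest measured gene on the other side of GPC4 and chosen after values were seen, was not called, at 0.08 against nonsense siRNA (SE 0.0489).

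The remaining glypicans were not called in any comparison of the 9 arrays. GPC1, a glypican of many tissues that binds fibroblast growth factors, ranged from 7.44 to 7.67 over the arrays, and its differences ran from -0.06 to -0.03. Without nonsense siRNA replicate 2 it differed by 0.01 between YAP and nonsense siRNA and by -0.08 between the control groups. GPC2, known from the developing nervous system, had 2 probe sets. The brighter one read 7.21, 7.23 and 7.23 on the untreated arrays, 7.10, 7.16 and 7.07 with nonsense siRNA and 7.14, 7.20 and 7.31 with YAP siRNA. Its nonsense siRNA arrays lay below the untreated ones, a difference of -0.11 (SE 0.0554), and the dimmer probe set gave -0.09. In all, 3 of the 9 genes did not overlap between nonsense siRNA and untreated cells, where 22.7% of all genes did not.

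SDC2, a syndecan of mesenchymal cells and of liver, was highest after nonsense siRNA and lowest after YAP siRNA. Its log2 signal was 9.12, 9.10 and 9.14 on the untreated arrays, 9.24, 9.19 and 9.30 after nonsense siRNA and 8.94, 9.05 and 9.05 after YAP siRNA. The 3 groups did not overlap one another. SDC2 fell by 0.23 against nonsense siRNA (SE 0.0534), to 85.3% of that level. Against untreated cells the difference was -0.11 (SE 0.0534) and was not called, and nonsense siRNA lay 0.12 above untreated cells (SE 0.0534), also not called. With quantile normalization this last difference was 0.07. The call against nonsense siRNA was lost without nonsense siRNA replicate 1 (-0.23) or 3 (-0.20) or YAP siRNA replicate 1 (-0.19). The nearest measured genes on either side of SDC2 on chromosome 8, PTDSS1 at 0.08 and CPQ at -0.06 against nonsense siRNA, were chosen after values were seen and were not called.

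SDC1, the syndecan of epithelial cells, was lowest after nonsense siRNA and highest in untreated cells. The log2 signal of SDC1 was 8.82, 8.75 and 8.82 on the untreated arrays, 8.51, 8.65 and 8.47 after nonsense siRNA and 8.66, 8.74 and 8.75 after YAP siRNA. The nonsense siRNA arrays were the 3 lowest, and their highest, replicate 2, lay 0.01 under the lowest YAP siRNA array. SDC1 differed by -0.25 between nonsense siRNA and untreated cells (SE 0.0583), by 0.17 between YAP and nonsense siRNA (SE 0.0583) and by -0.08 between YAP siRNA and untreated cells (SE 0.0583). None of the 3 was called on all 9 arrays. Without nonsense siRNA replicate 2 the first was -0.31 and the second 0.23, and both were called, as they were with array weights and with 3 arrays left out together. In these settings far more of all genes were called too. The shares were 7.98%, 14.2% and 12.6% in the first comparison, and 6.68%, 13.1% and 6.99% in the second. SDC3, a syndecan of neural tissue, ranged from 6.84 to 7.07 over the arrays with all groups overlapping, and its differences ran from -0.06 to -0.02. Between YAP and nonsense siRNA, 5 of the 9 genes did not overlap, GPC4, GPC6 and SDC2 below and GPC5 and SDC1 above, where 20.2% of all genes did not.

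**Figure D2:**
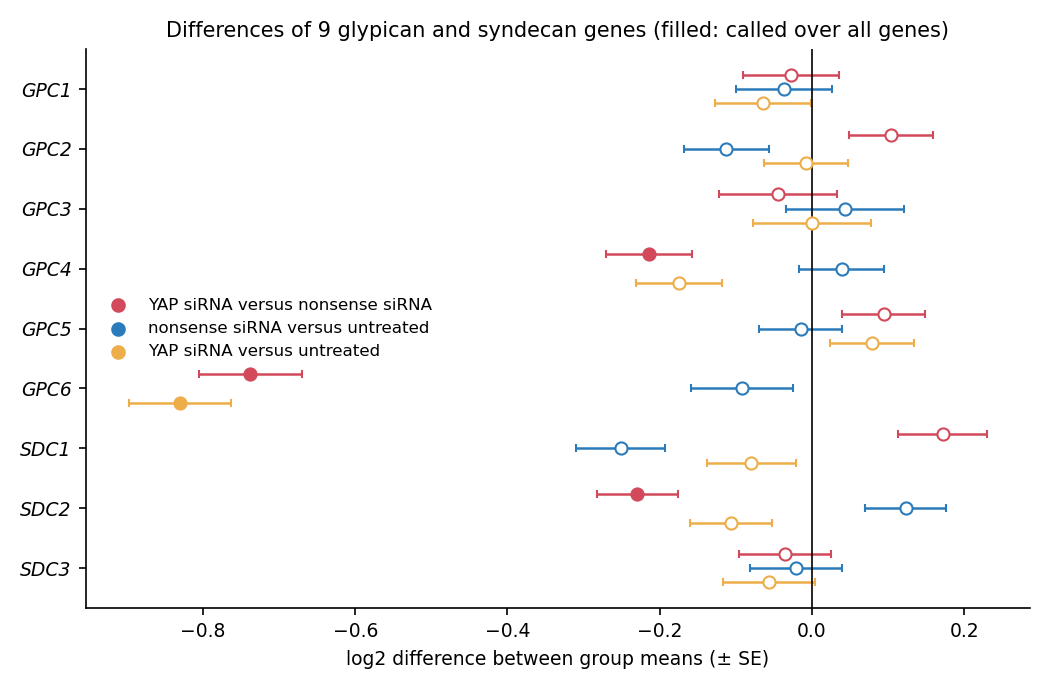
Log2 difference between group means (horizontal axis, ± SE of the limma fit) for 9 genes in 3 comparisons, marked by colour. Filled points were called over all genes. GPC6 stands at -0.74 and -0.83 against its controls, and the other differences lie between -0.25 and 0.17.

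**Figure D3:**
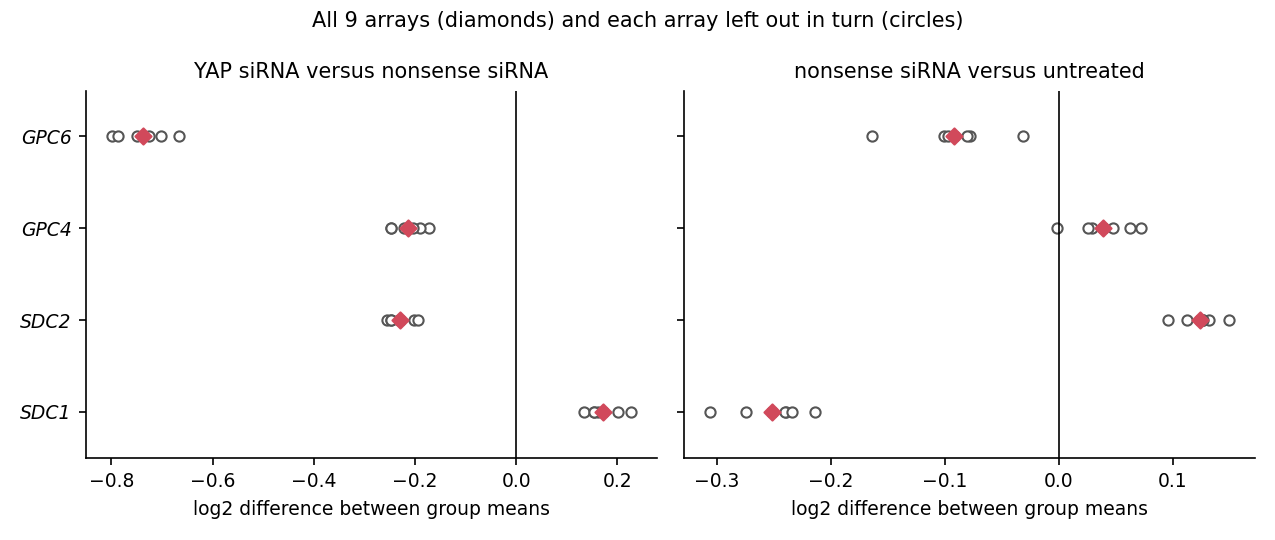
Log2 difference between group means (horizontal axis) of GPC6, GPC4, SDC2 and SDC1 with all 9 arrays (diamonds) and with each array left out in turn (circles), for YAP against nonsense siRNA and for nonsense siRNA against untreated cells; each panel has its own scale. GPC6 stays between -0.80 and -0.67 in the first, and SDC1 reaches -0.31 in the second without nonsense siRNA replicate 2.

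For each gene called, the 4 genes nearest to it in profile over the 9 arrays were found among the 9209 genes at or above the median signal, by the root mean square difference of mean-centred log2 values. Nearest to GPC6 were TMTC3 (0.132), MBNL2 (0.140), MCL1 (0.146) and CFL2 (0.146), whose differences between YAP and nonsense siRNA were -0.81, -0.59, -0.95 and -0.64. Against untreated cells YAP siRNA differed by -0.71, -0.51, -0.78 and -0.54, beside -0.83 for GPC6. Between nonsense siRNA and untreated cells these 4 went the other way from GPC6, at 0.10, 0.08, 0.17 and 0.10 beside -0.09. Nearest to GPC4 were SDE2 (0.0306), NDC1 (0.0329), COPB2 (0.0363) and WDR77 (0.0368), with differences of -0.24 to -0.21. Nearest to SDC2 were TRAM2 (0.0367), SLC44A3 (0.0386), MAP2K4 (0.0388) and KMT5A (0.0424), with differences of -0.26 to -0.15.

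The genes that build, edit, release and bind heparan sulfate chains were examined in 11 lists with 118 of 126 genes measured. Between YAP and nonsense siRNA 10 of the 118 passed limma's test over all genes, 3 lower and 7 higher, beside 4.53% of all genes. Between YAP siRNA and untreated cells 11 passed, 4 lower and 7 higher, beside 3.09%. Between nonsense siRNA and untreated cells 2 passed, both lower, beside 0.614%. The median differences were 0.03, -0.01 and -0.01, beside 0.01, -0.01 and -0.02 over all genes. The first count was 4 with all probe sets of the array tested and 2 to 10 with 1 array left out, namely 2 without nonsense siRNA replicate 1, 3 without its replicate 3, 4, 3 and 5 without YAP siRNA replicates 1, 2 and 3, and 6 without untreated replicate 2. The second was 4 with all probe sets tested and 5 without YAP siRNA replicate 2 or untreated replicate 1, 6 without YAP siRNA replicate 1 and 7 without untreated replicate 2. The third was 11 without nonsense siRNA replicate 2, where 7.98% of all genes passed. It was 0 without any 1 of the 3 untreated arrays, nonsense siRNA replicate 1 or YAP siRNA replicate 1. There 0.0597% to 0.293% of all genes passed. For the first count the shares of all genes were 1.91% with all probe sets tested and 2.31% to 6.68% with 1 array left out. For the second they were 0.994% with all probe sets tested and 1.51% to 1.88% in the other settings named.

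**Figure D4:**
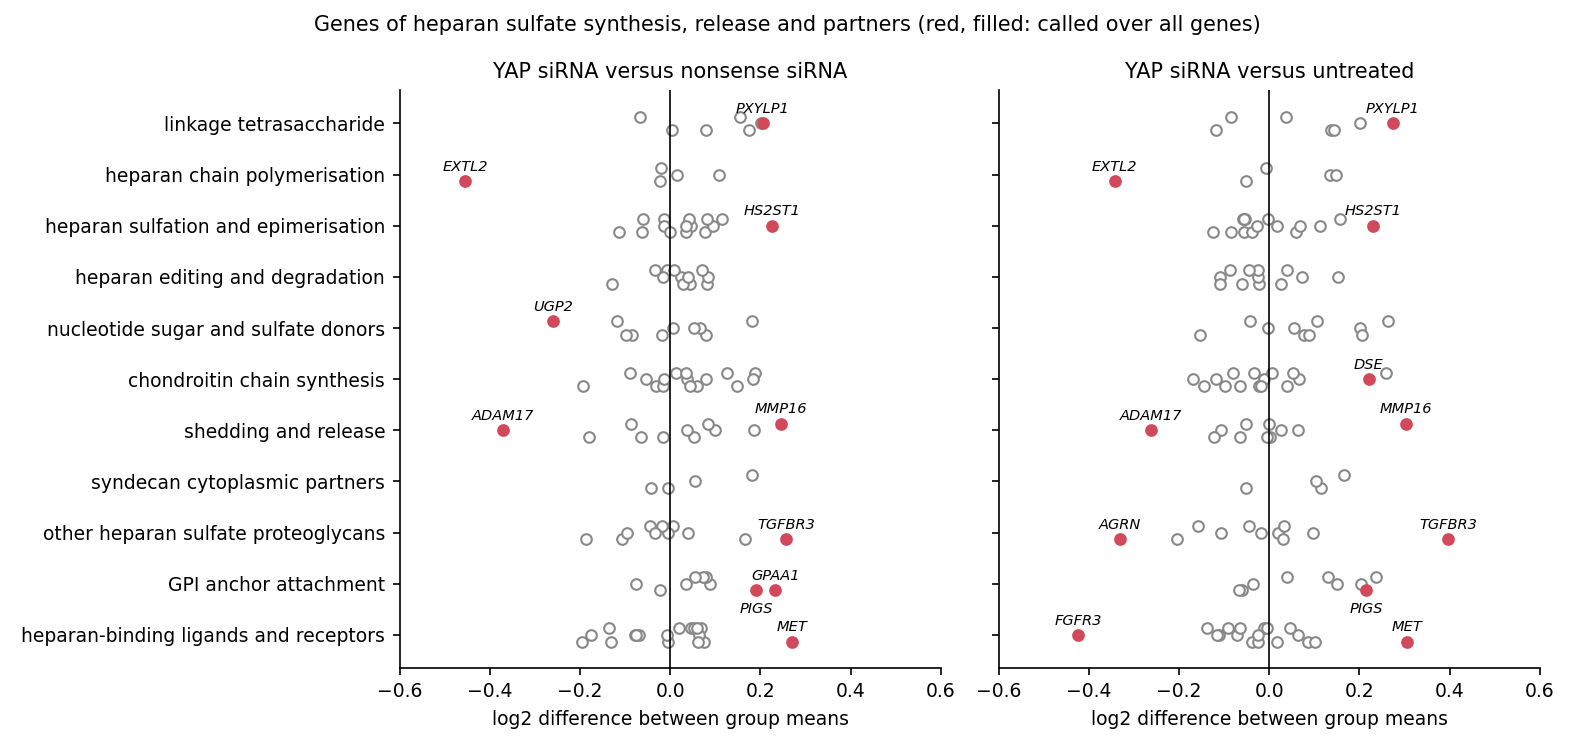
Log2 difference between group means (horizontal axis) of 118 genes in 11 lists (rows), for YAP siRNA against nonsense siRNA and against untreated cells. Each point is a gene, and filled red points with names passed limma's test over all genes. EXTL2 and ADAM17 lie to the left of 0 and HS2ST1, PXYLP1, MMP16, TGFBR3, PIGS and MET to the right in both comparisons, which share the YAP siRNA arrays.

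Of the genes for the linkage sugars and the polymer, EXTL2 moved most. It encodes a transferase that adds a hexosamine to the linkage region, and it fell by 0.46 against nonsense siRNA (SE 0.0604, limma adjusted p = 0.000311) and by 0.34 against untreated cells (adjusted p = 0.00449). Its log2 signal was 7.18 to 7.25 in untreated cells, 7.24 to 7.39 after nonsense siRNA and 6.79 to 6.97 after YAP siRNA, with no overlap between YAP siRNA and the controls. With all probe sets tested the second adjusted p was 0.0547. The polymerase genes EXT1 and EXT2, which elongate the chain, and EXTL3, which starts it, did not pass. Against nonsense siRNA they differed by -0.02, 0.02 and 0.11. So 1 of the 5 polymerisation genes passed there and against untreated cells, beside 4.53% and 3.09% of all genes. Of 7 linkage genes, PXYLP1, the phosphatase that clears xylose phosphate and lets the chain grow, rose by 0.21 against nonsense siRNA (adjusted p = 0.0351) and by 0.27 against untreated cells (adjusted p = 0.00792). The first of these calls was lost in 5 of the 9 leave-one-out fits (at worst without nonsense siRNA replicate 1, adjusted p = 0.154).

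Of all genes 4.53% passed between YAP and nonsense siRNA, 3.09% between YAP siRNA and untreated cells and 0.614% between the control groups. Of 15 genes for sulfation and epimerisation, HS2ST1, the uronyl 2-O-sulfotransferase, was the 1 that passed. Its log2 signal was 9.02 to 9.11 in untreated cells, 9.03 to 9.11 after nonsense siRNA and 9.30 to 9.33 after YAP siRNA. It rose by 0.23 against nonsense siRNA (SE 0.0515, limma adjusted p = 0.0182) and by 0.23 against untreated cells (adjusted p = 0.0212). These calls were lost in 3 and 4 of the 9 leave-one-out fits, at worst without YAP siRNA replicate 1 (adjusted p = 0.0817) and without untreated replicate 1 (adjusted p = 0.109). The N-deacetylase gene NDST1, at -0.00055, and the epimerase gene GLCE, at -0.11, did not pass against nonsense siRNA. Of 12 editing and degradation genes 0 passed limma's test in any comparison. At an unadjusted p under 0.05 there were 1 against nonsense siRNA, 3 between the control groups and 1 between YAP siRNA and untreated cells. Of all 18417 genes 2904, 3597 and 2904 had such a p in these comparisons. The 6-O-endosulfatase gene SULF2 and the heparanase gene HPSE differed by -0.03 and 0.02 against nonsense siRNA. Of 10 genes that supply sugar and sulfate donors, UGP2, which makes UDP-glucose, fell by 0.26 against nonsense siRNA (adjusted p = 0.0468). It differed by -0.04 against untreated cells and its call was lost in 6 of the 9 leave-one-out fits (at worst without nonsense siRNA replicate 3, adjusted p = 0.218). Of 16 chondroitin genes, the epimerase gene DSE rose by 0.22 against untreated cells (adjusted p = 0.0499), a call lost in 7 of those 9 fits (at worst without untreated replicate 1, adjusted p = 0.193).

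Among 11 genes that release these proteins from the surface, ADAM17, the metalloprotease that sheds syndecans and many growth factors, fell by 0.37 against nonsense siRNA (SE 0.0586, limma adjusted p = 0.00132) and by 0.26 against untreated cells (adjusted p = 0.0213). The second call was lost in 4 of the 9 leave-one-out fits (at worst without untreated replicate 2, adjusted p = 0.109) and with median centring. MMP16, a membrane-type matrix metalloprotease gene, rose by 0.25 (limma adjusted p = 0.0211) and by 0.30 (adjusted p = 0.00755). These calls were lost in 4 and 1 of those 9 fits (at worst without YAP siRNA replicate 2, adjusted p = 0.115 and 0.0532). Both were lost with all probe sets tested, and the first also with the mean of the gene's probe sets. NOTUM, another gene of this list, did not pass, at -0.02 against nonsense siRNA. Of 4 measured partners of the syndecan tail, 0 passed limma's test, beside 4.53% of all genes against nonsense siRNA. There 1 had an unadjusted p under 0.05, beside 2904 of all 18417 genes. It was SDCBP, the syntenin gene, at 0.18 against nonsense siRNA (adjusted p = 0.0651) and 0.17 against untreated cells. SDCBP passed against nonsense siRNA with quantile normalization, with array weights or among the brighter 50% of genes.

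Of 9 genes for GPI anchor attachment, which glypicans need, 2 passed against nonsense siRNA, beside 4.53% of all genes. These were the transamidase subunit genes PIGS and GPAA1, which rose by 0.19 (limma adjusted p = 0.0343) and 0.23 (adjusted p = 0.0445). PIGS rose by 0.21 against untreated cells too (adjusted p = 0.0235). GPAA1 was lower after nonsense siRNA than in untreated cells, falling by 0.29 (adjusted p = 0.0463), and differed by -0.06 between YAP siRNA and untreated cells, so it was lowest after nonsense siRNA, as SDC1 was. The GPAA1 calls were lost in 8 and 7 of the 9 leave-one-out fits (at worst without nonsense siRNA replicate 1, adjusted p = 0.255 and 0.268), and those of PIGS in 6 and 4 (0.173, without nonsense siRNA replicate 1, and 0.109, without YAP siRNA replicate 1).

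Other proteoglycans with heparan sulfate moved in both directions. TGFBR3, the betaglycan gene, rose by 0.26 against nonsense siRNA (SE 0.0555, limma adjusted p = 0.0132) and by 0.40 against untreated cells (adjusted p = 0.000767). The first call was lost in 4 of the 9 leave-one-out fits (at worst without nonsense siRNA replicate 1, adjusted p = 0.0971). AGRN, a basement membrane proteoglycan gene, fell by 0.33 against untreated cells (adjusted p = 0.0148), a call lost in 4 of those 9 fits (at worst without untreated replicate 1, adjusted p = 0.0912), and it did not pass against nonsense siRNA, at -0.19. These 2 were the genes of this list of 11 that passed, beside 4.53% of all genes against nonsense siRNA and 3.09% against untreated cells. Of 18 ligand and receptor genes, MET, the hepatocyte growth factor receptor gene, rose by 0.27 against nonsense siRNA (adjusted p = 0.0148) and by 0.31 against untreated cells (adjusted p = 0.00867). These were lost in 3 and 2 of those 9 fits (at worst without YAP siRNA replicate 2, adjusted p = 0.0872 and 0.0604). FGFR3, a fibroblast growth factor receptor gene, fell by 0.42 between untreated cells and YAP siRNA (adjusted p = 0.00151) and by 0.35 between untreated cells and nonsense siRNA (adjusted p = 0.0275). It differed by -0.08 between the transfected groups, and its second call was lost in 5 of those 9 fits (at worst without nonsense siRNA replicate 1, adjusted p = 0.206).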

How the data were processed

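Affymetrix arrays measured total RNA in 9 Hep3B samples. The authors deposited log2 signals per probe set, a unit read from the values. How background was corrected, probes summarised or arrays scaled is not given in the sources. No further scaling was applied. Array medians lay between 7.29 and 7.34.

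Of 33297 probe sets, 19460 were annotated with 1 gene, 1754 with several and 12083 were not listed. Single-gene probe sets gave 18417 genes, and the brightest stood for each gene with several. All 9 arrays entered a single limma 3.58.1 model in R 4.3.3 with 3 group means (prior degrees of freedom 9.29), with two-sided moderated tests, Benjamini-Hochberg adjustment over all genes and calls at an adjusted p under 0.05. The fit was tested on simulated data. Promoter windows came from RefSeq tables. Figures used Python 3.11.15 and matplotlib 3.10.9.

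The genes, lists and naming rule were chosen with earlier results of these data known. The rule named both families, YAP1, 14 fixed pathway genes (NDST2 was not measured), up to 5 passing genes per list and comparison, and the 4 nearest profiles per called gene. Alternatives were 2 other scalings, 2 filters on dim genes, other probe set rules, other variance models, array weights, only 6 arrays, adjusted p under 0.01, the replicate block and left-out arrays.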

Additional observations from a re-analysis of the deposited data

How the results depend on the processing

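None of the 21 alternatives turned the sign of a called gene of the families or the pathway lists. Of 555 differences of the glypicans and syndecans, 2 moved by 1 SD or more, both with quantile normalization between nonsense siRNA and untreated cells: GPC2 to -0.08 and SDC2 to 0.07. This count says little of robustness, because many of the 555 could not move. Settings that change only the test, the threshold or the set of genes return the same difference. Leaving out 1 of the 3 arrays of a group cannot shift a difference by 1 SD. Of the glypicans and syndecans, 3 were called between YAP and nonsense siRNA. Under other settings 1 was called at an adjusted p under 0.01, 1 with all probe sets tested and 1 to 4 with 1 array left out. Of all genes 2.15%, 1.91% and 2.31% to 6.68% were called in those settings. Between the control groups 0 were called, against 1 with array weights, 1 with 3 arrays left out together (untreated replicate 3, nonsense siRNA replicate 2 and YAP siRNA replicate 3) and 0 to 1 with 1 left out. Of all genes 14.2%, 12.6% and 0.0597% to 7.98% were called in those settings. Between YAP siRNA and untreated cells 1 was called, against 2 with array weights, where 9.55% of all genes were called, and 1 with any 1 array left out.

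Of the pathway genes, 10 passed between YAP and nonsense siRNA, against 2 at an adjusted p under 0.01, 22 with array weights, 4 with all probe sets tested and 2 to 10 with 1 array left out. Of all genes 2.15%, 13.1%, 1.91% and 2.31% to 6.68% passed in those settings. Between the control groups 2 passed, against 0 at an adjusted p under 0.01, with median centring, with only 6 arrays or with all probe sets tested, 1 with variance trend, 20 with array weights, 18 with 3 arrays left out together and 0 to 11 with 1 left out. For the last 3 of these settings the shares of all genes were 14.2%, 12.6% and 0.0597% to 7.98%. Between YAP siRNA and untreated cells 11 passed, against 6 at an adjusted p under 0.01, 19 with array weights, 4 with all probe sets tested, 20 with 3 arrays left out together and 5 to 13 with 1 left out. The shares of all genes there were 1.36%, 9.55%, 0.994%, 8.47% and 1.51% to 4.21%. Testing all probe sets adjusts over 33297 tests. The other causes were not tested. GPC4, GPC5, SDC3 and GPC2 lay under the median signal, which limits what these arrays can show for them.

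With the replicate number as a block, 2 of the glypicans and syndecans were called between YAP and nonsense siRNA (GPC4 was lost). There 6 pathway genes passed, beside 4.28% of all genes. Between the control groups 1 pathway gene passed, beside 0.353%. Of 9 pairs of same-numbered arrays, 3 had deviations that correlated over 0.1, and r ran from -0.34 to 0.34. For replicates 1, 2 and 3, r was 0.04, 0.25 and 0.34 between untreated and YAP siRNA. It was 0.07, -0.17 and 0.03 between untreated and nonsense siRNA, and 0.24, -0.30 and -0.34 between nonsense and YAP siRNA. With 3 arrays in a group these values cannot decide whether the numbers pair the arrays. Of arrays with different numbers, nonsense siRNA replicate 2 and YAP siRNA replicate 3 had deviations with r = 0.47, and untreated replicate 3 and nonsense siRNA replicate 2 had r = 0.07.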
